A study of Mus musculus with 10 samples.

Results

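The matrix metalloproteinases (Mmp), the ADAM and ADAMTS metalloproteinases and the tissue inhibitors of metalloproteinases (Timp) were described in SmoM2-expressing cells of mouse skin epidermis. Members were every row of the deposited table whose gene symbol starts with Mmp, Timp, Adam or Adamts followed directly by a digit. The rule gave 79 of 49671 rows, of which 33 were Adam, 19 Adamts, 23 Mmp and 4 Timp genes. No measured value entered the rule.

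The active proteases among these carry a zinc ion in the catalytic site and most are made as inactive precursors. Some Adam proteins, such as Adam22, lack the catalytic residues. Secreted and membrane-anchored Mmp proteins cut collagens, laminins and other parts of the extracellular matrix, ADAM proteins release growth factors, cytokines and adhesion molecules from the cell surface, and ADAMTS proteins cut proteoglycans such as versican or trim procollagens. Timp proteins bind and block the catalytic sites, each with its own range of targets. In skin, these enzymes are known from wound repair, hair follicle growth and the spread of tumour cells through the basement membrane.

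Bulk RNA sequencing covered 10 libraries in 5 groups of 2. Every group carried Rosa-SmoM2, an active form of the Hedgehog signal transducer Smoothened joined to yellow fluorescent protein, and the cells were sorted for that protein. Krt14-CREER, which directs recombination to the basal layer of the epidermis, was used at 6 weeks (the Krt14 6-week group), at 8 weeks (the Krt14 8-week group) and at 6 weeks with Survivin LOF, a loss of Survivin (the LOF group). Inv-CREER, driven by the promoter of involucrin, a protein of differentiating keratinocytes, was used at 8 weeks alone (the Inv group) and with Krt14rtTA and Survivin-GOF, a gain of Survivin (the GOF group). Survivin, encoded by Birc5, acts in cell division and in the control of cell death. The weeks stand beside TAM (tamoxifen) in the sample titles, and the labels give no animal age, sex or batch. The descriptions of both Inv libraries contain the word pool. Krt14rtTA is listed for the GOF group only, so its effect and that of Survivin-GOF cannot be told apart. The labels do not say that libraries of a group came from separate animals, so p-values measure the spread between these libraries, which may be technical.

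Values are the authors' normalized counts, and the reads behind them, recovered from the step size of the values, numbered between 7693170 and 8870759 per library. A value of 7 or 8 normalized counts, depending on the library, stands for 3 reads and was taken as the floor, which covers counting error only. Birc5 was measured at 961 to 1103 in the Krt14 6-week group, 382 to 429 in LOF, 237 to 265 in Inv and 7277 to 16384 in GOF, so it went the way the labels say. Xist, the RNA that coats an inactive X chromosome, was at 30024 to 59594 in LOF and 7589 to 56185 in GOF, against 51 to 194 in the other libraries, so it separated LOF and GOF from their controls. The 10 keratinocyte markers summed to 306813 to 343227 in both Krt14 control groups, 273516 to 313213 in LOF, 214053 to 222586 in Inv and 189853 to 270495 in GOF. Of these 10 markers, 7 were called higher in Krt14 at 8 weeks than in Inv, against 8.18% of all tested genes. The 10 fibroblast markers summed to 5979 to 7316 in both Krt14 control groups, 21051 to 21472 in LOF, 20250 to 22168 in Inv and 17090 to 39918 in GOF. These sums were mostly Dcn, at 1163 to 2235 in the Krt14 control groups and 14512 to 37402 elsewhere, and Fbln1, which went the other way, at 4078 to 5240 and 1561 to 2025. Dpt was at 0 to 3. The 9 neutrophil markers summed to 1513 to 4698 in the Krt14 control groups and to 53 to 155 in the other groups. In the Krt14 control groups nearly all of that was S100a8 and S100a9, which keratinocytes also make. Ly6g and Csf3r were at 0 to 3 and Retnlg at 0 in all libraries, whereas Cxcr2 was at 51 and 42 in the Krt14 6-week group and at 0 to 11 elsewhere. The 10 macrophage and dendritic markers summed to 263 to 543 in the Krt14 control groups and 720 to 1135 elsewhere, with Adgre1 at 0 to 5 and Lyz2 at 0 to 12. Much of this split was Cd74, at 55 to 230 in the Krt14 control groups and 333 to 751 elsewhere. Csf1r overlapped, at 109 to 169 and 120 to 230. The 7 melanocyte markers summed to 885 to 1494 in the Krt14 control groups and 1768 to 3043 elsewhere. Sums of the 8 endothelial and mural markers were 186 to 391 in 9 libraries and 1000 in GOF replicate 2, and those of the 7 lymphocyte markers 22 to 85. The keratinocyte, fibroblast, neutrophil, macrophage and melanocyte sums thus separated LOF from the Krt14 6-week group, and Krt14 at 8 weeks from Inv and GOF. Of these sums, only the neutrophil and melanocyte sums did not overlap between GOF and Inv. The endothelial and mural sum was also lower in LOF (186 to 196) than in the Krt14 6-week group (253 to 311). The lymphocyte sum was higher in Krt14 at 8 weeks (57 to 85) than in Inv (27 to 30) and GOF (27 to 33). Between 8 and 6 weeks in Krt14, only the macrophage, the melanocyte and the endothelial and mural sums did not overlap. The part of these sums in the results was not tested. In bulk samples, fewer cells of a type and less RNA per cell cannot be told apart.

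Of the 79 members, 51 reached 10 normalized counts in at least 2 libraries and were tested (14 Adam, 17 Adamts, 16 Mmp and all 4 Timp genes). The other 28 never exceeded 12, and 9 of them, all Adam genes, were at 0 in every library. A mean over the 10 libraries of at least 50 was reached by 28 members and a mean of at least 1000 by 9. To compare genes with one another, values were divided by exon length. On that scale Adamts1, a protease of aggrecan and versican, had the highest mean level at 914.5 normalized counts per 1000 exon bases, followed by Adam10, the main releasing enzyme of Notch receptors and E-cadherin, at 911.2 and Timp3, the inhibitor that binds to the matrix, at 876.8. These 3 means lay within the spread of each gene over the groups. Mmp14, the membrane-type enzyme that activates pro-Mmp2, followed at 625.5, and Mmp2 itself had 383.8, next to Adamts9 at 381.9 and Adam9 at 372.2. Mmp13, a collagenase with a wide spread between groups, had a mean of 81.7, with 251.8 in the Krt14 6-week group, 122.3 in the Krt14 8-week group, 15.5 in LOF and 7.86 in Inv, and GOF lay between the latter 2.

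**Figure D1:**
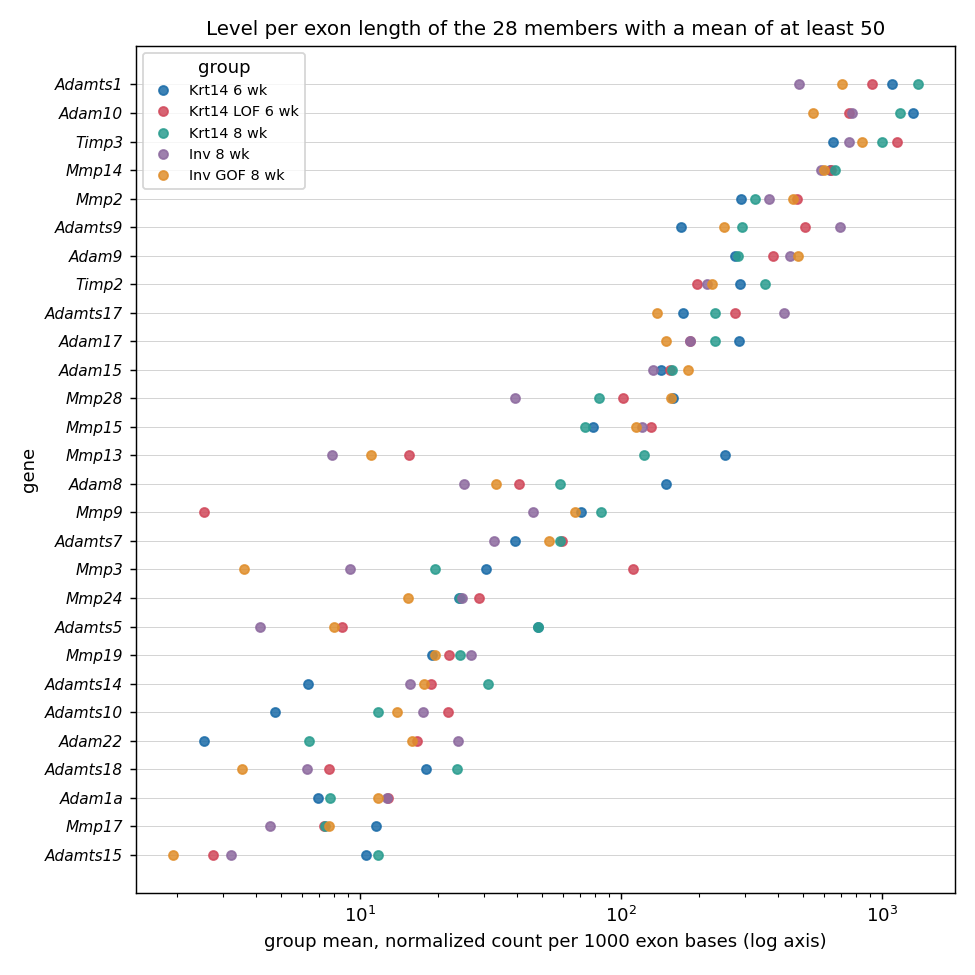
Group means of the 28 members with a mean of at least 50 over the 10 libraries, as normalized counts per 1000 exon bases on a log axis, 1 coloured point per group and 1 line per gene. Adamts1, Adam10 and Timp3 lead the order, Mmp14 points lie close together, and Mmp13 and Adamts5 points spread widely.

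The loss of Survivin was examined by comparing LOF with the Krt14 6-week group. The collagenase Mmp13, the gelatinase Mmp9, the stromelysin Mmp10 and the proteoglycanase Adamts5 fell in LOF, as did the sheddases Adam8, Adam10 and Adam17, while Adam22, Adamts10, Adamts9, Timp3 and Mmp2 rose. In all, 22 of 51 tested members were called at an adjusted p of 0.05, 11 higher and 11 lower (limma on log2(value + 1), Benjamini-Hochberg over all 21995 tested genes). Among all tested genes, 30.9% were called, 19.5% higher and 11.4% lower. The median log2 change was 0.26 over the members and 0.16 over all tested genes. By family, 6 of 14 Adam (2 higher and 4 lower), 10 of 17 Adamts (7 and 3), 4 of 16 Mmp (1 and 3) and 2 of 4 Timp genes (1 and 1) were called. With the log2 level of Xist as a covariate, 5 members were called (2 higher, 3 lower), against 4.28% of all tested genes. Of these 5 members, 3 were among the 22: Mmp13, Adamts5 and Adamts9. Xist did not overlap between LOF and its controls, so this fit rests on the spread of Xist within groups. That spread was widest in GOF, at 7589 and 56185. Calls kept, lost or turned by this fit therefore do not test the LOF change. This fit is among the alternatives summed up below for LOF, where a call that it kept adds no support. Scaling the libraries by the median of ratios moved the median change of all genes to 0.02 and the share of higher calls among all called genes from 63.1% to 49.0% (50.9% with quantile normalization), and the members then split into 9 higher and 12 lower.

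The driver line was examined by comparing the Krt14 8-week group with the Inv group, between which Xist was low throughout. Mmp13 and Adamts5 were higher in Krt14 cells by the largest margins among called members above the floor. Mmp10, under the floor in Inv, was also higher, as were Adamts1, Adamts18, Adam8, Adam10 and Timp2. Adam22, Adam9, Adamts9 and Adamts17 were lower. Of the 51 members, 17 were called, 11 higher and 6 lower, against 19.6% of all tested genes, 8.18% higher and 11.4% lower. The median log2 change was 0.11 for members and -0.10 for all tested genes. The called genes were 5 Adam (3 higher, 2 lower), 9 Adamts (5 and 4), 2 Mmp (2 and 0) and 1 Timp gene (1 and 0). Scaling by the median of ratios raised the share of higher calls among all called genes from 41.8% to 51.5%. The age of the animals is not given, and the 2 groups differ in the driver and in whether the labels mention a pool.

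The gain of Survivin was examined by comparing GOF with Inv. Mmp28 (epilysin, a Mmp of keratinocytes) and Adamts7 rose, and Adamts17, Adamts9 and Adam10 fell. These were the 5 members called of 51, 2 higher and 3 lower, against 15.3% of all tested genes, 6.87% higher and 8.4% lower. The median log2 change was 0.04 for members and -0.01 for all tested genes. No Timp gene was called by limma, 0 of 4 had an unadjusted p under 0.05 and limma-voom on the recovered reads called 0. The count of members was 14 without GOF replicate 1 and 1 without Inv replicate 2, and the share of all tested genes moved with it, to 28.2% and 4.15%. With Xist as a covariate, and with only the groups compared in the fit, 0 of the 51 were called by limma. Of all tested genes, these 2 fits called 0.182% and 1.17%.

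A further 2 comparisons used the same groups. Between 8 and 6 weeks in Krt14 cells, 5 members were called, 4 higher (Adam22, Adamts10, Adamts14 and Adamts20) and 1 lower (Adam8), against 4.88% of all tested genes, 4.02% higher and 0.855% lower. The median log2 change was 0.32 for members and 0.14 for all tested genes. No Mmp gene was called by limma, 3 of 16 had an unadjusted p under 0.05, and limma-voom called 1, Mmp13. Between GOF cells and Krt14 cells at 8 weeks, 20 members were called, 5 higher and 15 lower in GOF, against 27.7% of all tested genes, 15.2% higher and 12.5% lower. The median there was -0.31 for members and 0.09 for all tested genes. This last comparison shares its groups with those before it, and the 5 comparisons are set side by side with no overlap read from them. Separate ranges are common with 2 libraries a group: the groups did not overlap in 66.6% of all tested genes in LOF, 54.9% in GOF, 63.9% in Krt14 over Inv, 56.5% in 8 over 6 weeks and 60.7% in GOF over Krt14. A split of the 4 Krt14 control libraries from the other 6 was not counted over all tested genes. Where it is given below, it describes the gene and is not shown to be particular to the members. Scaling by the median of ratios moved the share of higher calls from 82.5% to 53.7% of all called genes between 8 and 6 weeks, and quantile normalization moved it to 67.5%. The rise of Adamts20 with time, from 3 and 3 to 17 and 21 (adjusted p = 0.0388), was lost whichever of its 4 libraries was left out (0.0874 to 0.23), and of the 5 calls only that of Adamts14 was kept in all of these.

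**Figure D2:**
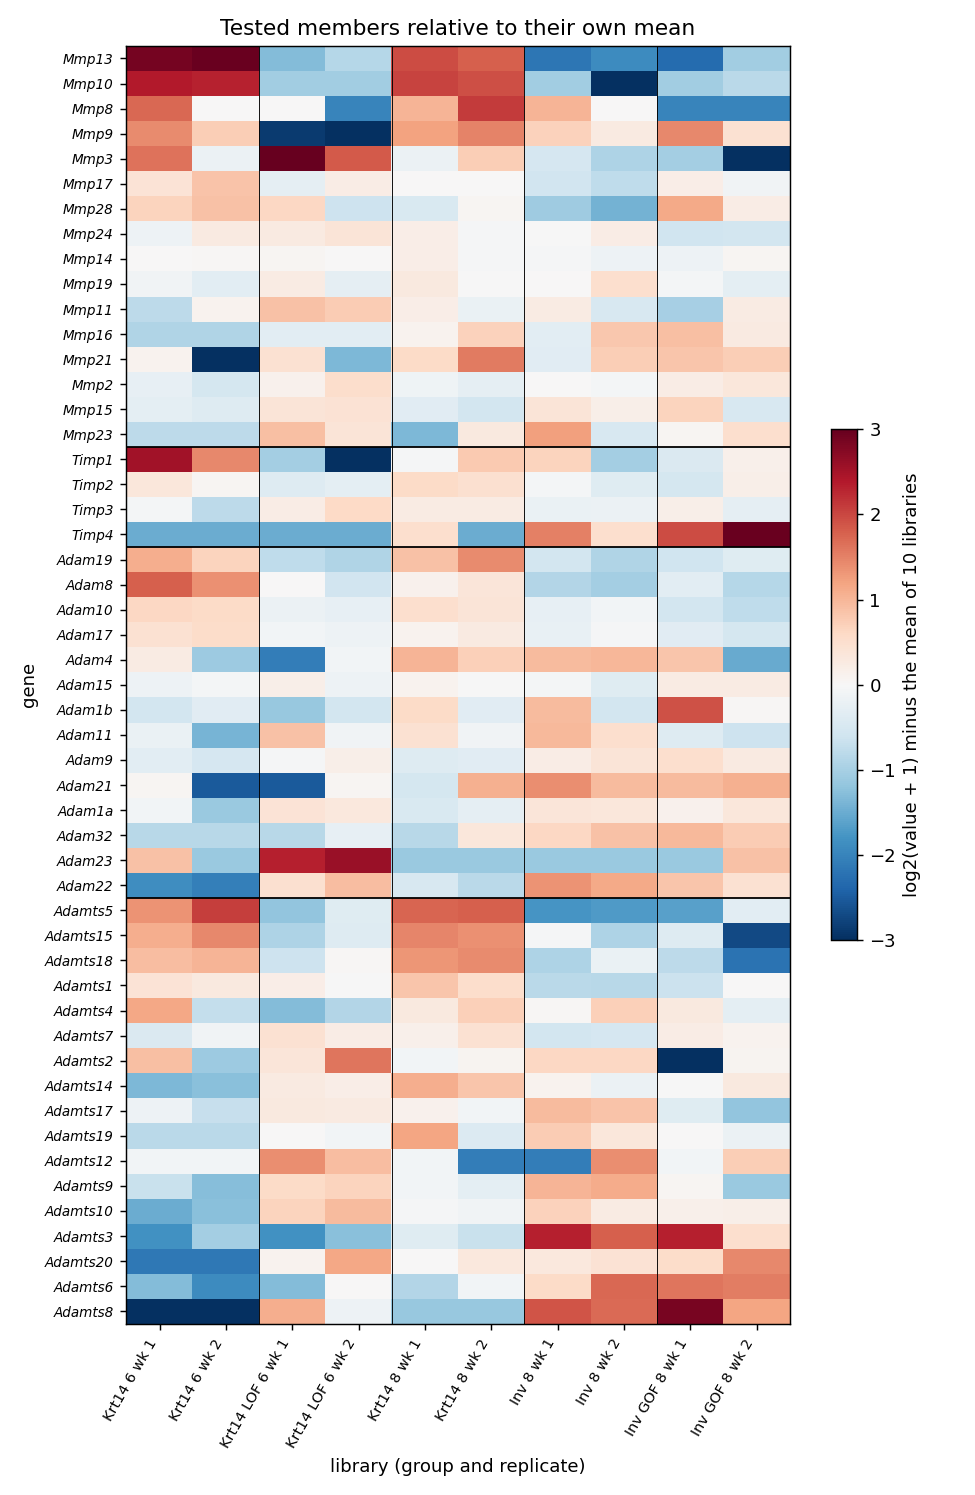
Log2(value + 1) of the 51 tested members in each of the 10 libraries, relative to the gene's own mean over the libraries (red above, blue below). Genes are grouped by family and ordered within it by their level in the Krt14 control groups, so Mmp10, Mmp13 and Adamts5 sit near the top of their blocks with high Krt14 control libraries.

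Mmp13 belongs to a cluster of 10 Mmp genes that lie within 427.072 kb of chromosome 9 (GRCm38, 7272514 to 7699585) in the order Mmp13, Mmp12, Mmp1b, Mmp3, Mmp1a, Mmp10, Mmp8, Mmp27, Mmp20 and Mmp7. Of these, Mmp13, Mmp3, Mmp10 and Mmp8 were tested. The 120 bases before the RefSeq start of each of these 4 are shown because they are the tested genes of the cluster. Capitals mark the letters TGANTCA, searched on both strands with any base at N. They include TGACTCA and TGAGTCA, the forms to which AP-1 factors (Fos and Jun proteins) bind.
Mmp13 (chr9:7272394-7272513, plus strand): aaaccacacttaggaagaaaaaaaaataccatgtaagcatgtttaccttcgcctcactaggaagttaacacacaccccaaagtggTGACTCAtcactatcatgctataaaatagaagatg
Mmp10 (chr9:7502222-7502341, plus strand): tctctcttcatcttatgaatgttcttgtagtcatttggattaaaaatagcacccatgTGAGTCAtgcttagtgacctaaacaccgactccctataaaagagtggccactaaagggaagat
Mmp3 (chr9:7445702-7445821, plus strand): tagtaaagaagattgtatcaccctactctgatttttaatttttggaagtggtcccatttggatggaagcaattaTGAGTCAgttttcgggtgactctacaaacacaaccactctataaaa
Mmp8 (chr9:7558309-7558428, plus strand): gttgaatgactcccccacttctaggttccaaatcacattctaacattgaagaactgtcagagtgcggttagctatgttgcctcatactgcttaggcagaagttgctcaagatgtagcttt
The letters lay 35 bases before the start in Mmp13, 46 in Mmp3 and 63 in Mmp10. In the 250 bases before the start they occurred in 8 of the 10 clustered genes, the exceptions being Mmp8 and Mmp27, counting a gene with several starts once, and in 7.819% of the 27025 genes of the RefSeq table (GRCm38.p6). Both counts take any base at N, and the match in Mmp20 was TGAATCA. Of the 34 tested members with a promoter in that table, 4 (11.765%) held them: Mmp13, Mmp10, Mmp3 and Adam19. A match describes the letters and not a bound site.

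Mmp13 (ENSMUSG00000050578, plus strand, 7272514 to 7283331), the main interstitial collagenase of the mouse, had 653 and 693 normalized counts in the Krt14 6-week libraries, 35 and 48 in LOF, 345 and 309 in Krt14 at 8 weeks, 19 and 23 in Inv and 17 and 42 in GOF. The Krt14 control libraries were all above the other 6 with no overlap, and the 6-week pair was above the 8-week pair. The log2 change was -4.00 ± 0.38 (SE) in LOF (limma adjusted p = 3.33e-05) and 3.90 ± 0.38 in Krt14 over Inv (adjusted p = 4.66e-05). Over all alternatives run, it ranged from -6.97 to -3.78 in LOF and from 3.68 to 4.19 in Krt14 over Inv, and the adjusted p stayed at or below 0.0145 and 0.00192. GOF over Inv gave 0.34 ± 0.38 (adjusted p = 0.593), and without GOF replicate 1 it gave 0.97 (adjusted p = 0.0304). The 8 over 6 weeks difference was -1.04 ± 0.38 (adjusted p = 0.137, and 0.00979 by limma-voom).

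Mmp10 (stromelysin-2, plus strand, 7502352 to 7510240) had 63 and 60 in the Krt14 6-week libraries, 5 and 5 in LOF, 49 and 46 in Krt14 at 8 weeks, 5 and 0 in Inv and 5 and 6 in GOF. Its 4 Krt14 control libraries were thus the only ones above the floor, and no fold is given. It was called in LOF (adjusted p = 0.00661) and in Krt14 over Inv (adjusted p = 0.00257), and both calls were kept whichever library was left out, though the LOF call was not kept with Xist as a covariate (adjusted p = 0.441). Mmp3 (stromelysin-1), which cuts proteoglycans and activates other pro-Mmp proteins, had 86 and 24 in Krt14 at 6 weeks, 303 and 100 in LOF, 24 and 46 in Krt14 at 8 weeks, 19 and 14 in Inv and 13 and 0 in GOF. Both LOF libraries were above both controls, but the log2 change of 1.91 ± 1.06 did not pass the test (adjusted p = 0.199). The Mmp3 values in GOF were below those of the Krt14 8-week group (adjusted p = 0.0439), a call lost without either Krt14 8-week library (adjusted p = 0.107 and 0.214) and without GOF replicate 2 (0.294). Mmp8 (neutrophil collagenase) had 12 and 3 in Krt14 at 6 weeks, 3 and 0 in LOF, 7 and 16 in Krt14 at 8 weeks, 7 and 3 in Inv and 0 and 0 in GOF. Mmp8 thus stayed at or near the floor in most libraries, and its call in GOF over Krt14 at 8 weeks (adjusted p = 0.0232) was lost without either Krt14 library (0.0592 and 0.15) or GOF replicate 2 (0.0586). The untested Mmp12 (macrophage elastase) reached 12 and 8 in Krt14 at 6 weeks and 0 to 3 elsewhere. Mmp1a and Mmp1b, related genes whose sharing of reads was not examined, reached 8 at most.

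**Figure D3:**
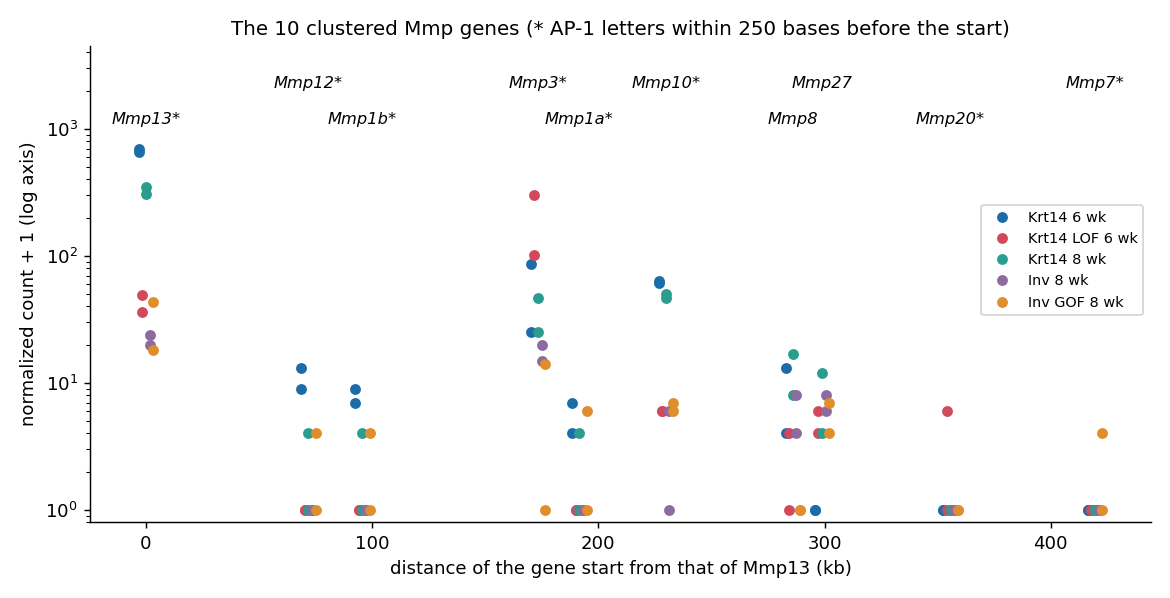
Normalized counts plus 1 (log axis) of the 10 clustered Mmp genes in each of the 10 libraries (points, coloured by group) against the distance of their starts from that of Mmp13 in kb. The 4 Krt14 control libraries lie apart from the others at Mmp13 and Mmp10, and the LOF libraries lie highest at Mmp3.

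The gelatinases, which cut denatured collagen and type IV collagen of the basement membrane, went opposite ways in LOF. Mmp9 (ENSMUSG00000017737, chromosome 2, 164940780 to 164955850, plus strand) had 309 and 192 normalized counts in Krt14 at 6 weeks, 15 and 3 in LOF, 269 and 324 in Krt14 at 8 weeks, 187 and 140 in Inv and 313 and 159 in GOF. LOF alone was low, with replicate 2 under the floor, and the other 4 groups lay between 140 and 324. The log2 change in LOF was -4.93 ± 0.55 (adjusted p = 9.9e-05). With Xist as a covariate the change was -1.88 and was not called (adjusted p = 0.656). Mmp9 was not called in Krt14 over Inv (0.86 ± 0.55, adjusted p = 0.318, and 0.0306 with only the groups compared in the fit), although the 2 groups did not overlap, as in 63.9% of all tested genes. Mmp2 had 1073 and 879 in Krt14 at 6 weeks, 1376 and 1829 in LOF, 1155 and 1056 in Krt14 at 8 weeks, 1279 and 1213 in Inv and 1484 and 1594 in GOF. It rose in LOF by a log2 change of 0.71 ± 0.15 (adjusted p = 0.00459) and was higher in GOF than in Krt14 at 8 weeks (0.48 ± 0.15, adjusted p = 0.0342). The LOF call was lost without Krt14 6-week replicate 2 (0.56, adjusted p = 0.0561) and without LOF replicate 2 (0.50, adjusted p = 0.0547). The LOF change of Mmp2 was 0.078 with Xist as a covariate (adjusted p = 0.958), and with only the groups compared in the fit it was not called (0.0723). The call in GOF was lost without either Krt14 8-week library (adjusted p = 0.0923 and 0.186) and without GOF replicate 2 (0.103).

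None of the 5 tested membrane-type Mmp genes, which sit on the cell surface and act close to it, was called by limma in any of the 5 comparisons. At an unadjusted p under 0.05 there were 1, 1, 1, 0 and 1 in LOF, GOF, Krt14 over Inv, 8 over 6 weeks and GOF over Krt14. In each, limma-voom called 0. Of all tested genes, limma called 30.9%, 15.3%, 19.6%, 4.88% and 27.7% in the same order. Mmp14 had 3774 and 3781 in Krt14 at 6 weeks, 3893 and 3754 in LOF, 4283 and 3614 in Krt14 at 8 weeks, 3623 and 3372 in Inv and 3340 and 3848 in GOF. Its log2 change was 0.02 ± 0.11 in LOF (adjusted p = 0.927), 0.04 ± 0.11 in GOF (0.867) and 0.17 ± 0.11 in Krt14 over Inv (0.314). The groups of Mmp14 overlapped in LOF and in GOF. Among secreted members outside these classes, Mmp28 had 569 and 659 in Krt14 at 6 weeks, 555 and 235 in LOF, 264 and 375 in Krt14 at 8 weeks, 171 and 134 in Inv and 787 and 419 in GOF. The GOF libraries exceeded both Inv libraries but differed from each other. Mmp28 rose in GOF by a log2 change of 1.92 ± 0.38 (adjusted p = 0.00767), a call lost without Inv replicate 2 (1.74, adjusted p = 0.0884), and was not called in LOF (-0.76 ± 0.38, adjusted p = 0.158), where it was called without LOF replicate 1 (-1.38, adjusted p = 0.026). The exons of Mmp28 overlap 1700020L24Rik on the other strand, and strand use in counting is not given in the sources used here.

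**Figure D4:**
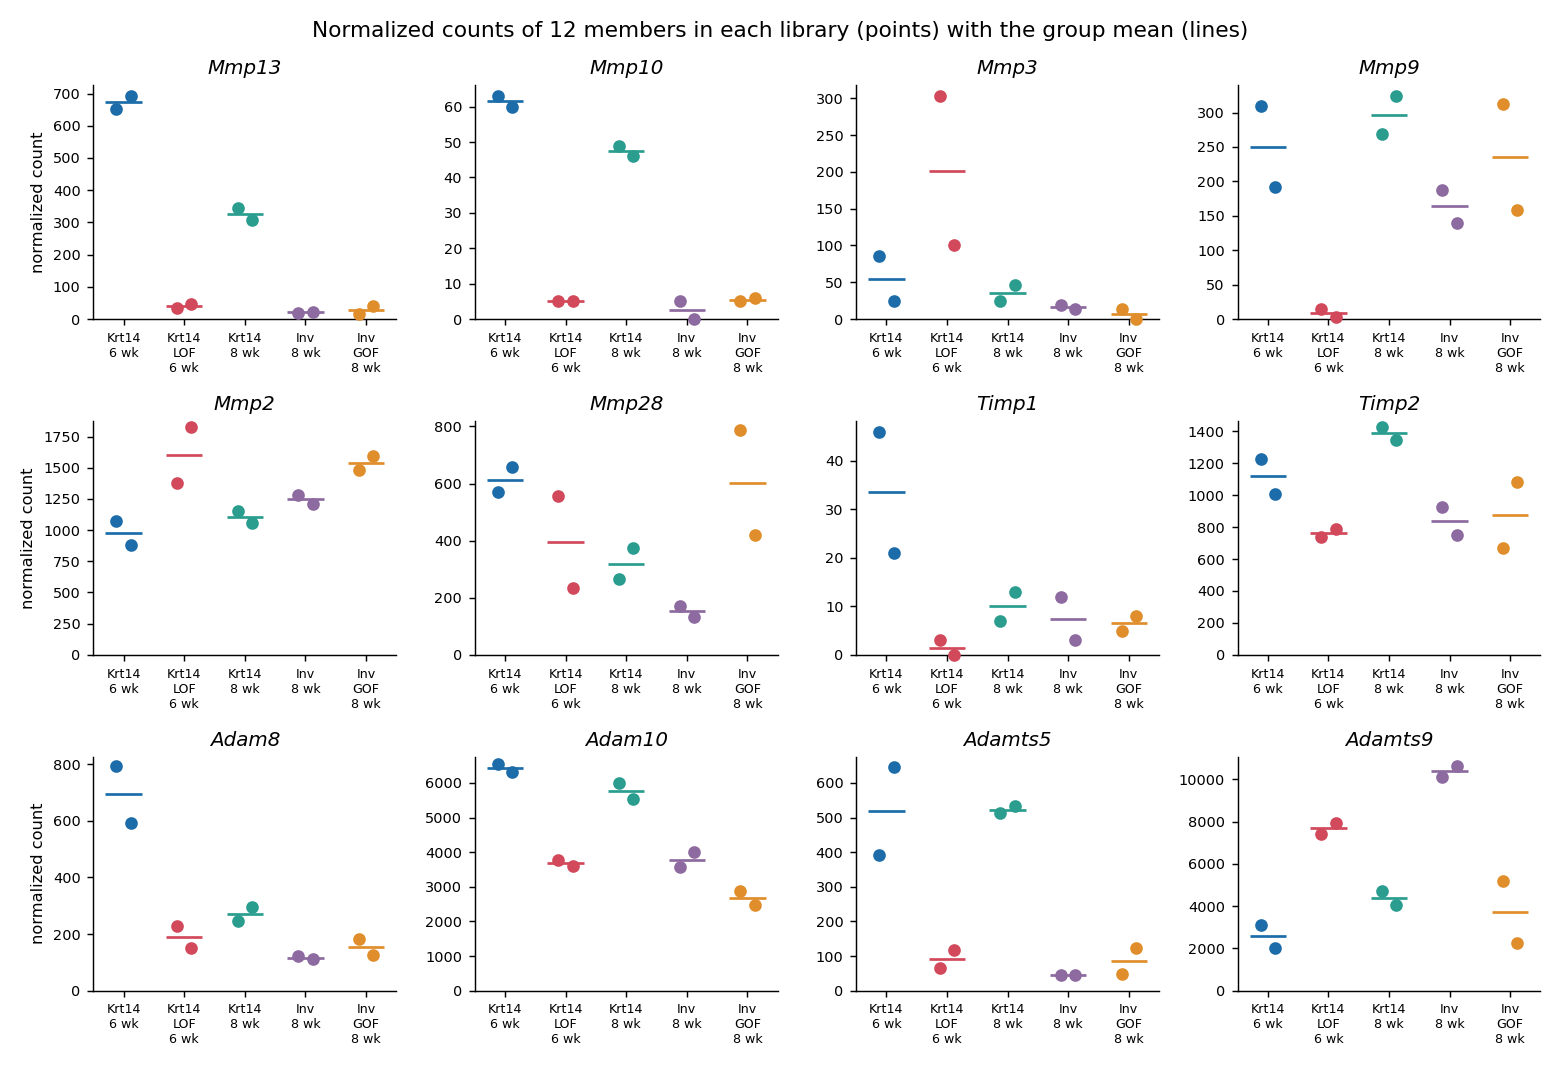
Normalized counts of 12 members in each of the 10 libraries (points) with the group mean (lines), all axes starting at 0. Mmp13, Mmp10 and Adamts5 are high in the Krt14 6-week and 8-week libraries only, Mmp9 is low in LOF only, and Adamts9 is high in LOF and Inv.

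The inhibitors did not move together. Timp1, a secreted inhibitor induced in injured tissue, had 46 and 21 in Krt14 at 6 weeks, 3 and 0 in LOF, 7 and 13 in Krt14 at 8 weeks, 12 and 3 in Inv and 5 and 8 in GOF. Only the Krt14 6-week libraries were clearly above the floor, and the LOF libraries were under it. Timp1 was called lower in LOF (adjusted p = 0.00594), but not without Krt14 6-week replicate 1 (adjusted p = 0.0502) or LOF replicate 2 (0.0544). Timp2, which inhibits Mmp proteins and also takes part in pro-Mmp2 activation, had 1226 and 1008 in Krt14 at 6 weeks, 736 and 787 in LOF, 1428 and 1347 in Krt14 at 8 weeks, 927 and 748 in Inv and 669 and 1082 in GOF. The 4 Krt14 control libraries held the highest values except for GOF replicate 2, which lay among them. Timp2 was higher in Krt14 than in Inv (0.74 ± 0.20, adjusted p = 0.0262) and lower in GOF than in Krt14 (-0.70 ± 0.20, adjusted p = 0.0242), and the LOF change of -0.55 ± 0.20 missed the threshold (adjusted p = 0.0627). In LOF it was called lower with median-of-ratios scaling (-0.69, adjusted p = 0.0292) and with Xist as a covariate (-2.41, adjusted p = 0.0316). The Krt14 over Inv call was lost whichever of its 4 libraries was left out (adjusted p = 0.0617 to 0.204), and the GOF over Krt14 call was lost without either Krt14 8-week library (adjusted p = 0.132 and 0.0919) or GOF replicate 1 (0.109). Timp3 had 6619 and 4014 in Krt14 at 6 weeks, 8031 and 10545 in LOF, 8208 and 8176 in Krt14 at 8 weeks, 6080 and 6110 in Inv and 7839 and 5787 in GOF. Both LOF libraries were above both 6-week controls, and the Krt14 8-week libraries lay within the LOF range. Timp3 rose in LOF (0.84 ± 0.21, adjusted p = 0.0127). This call was lost without Krt14 6-week replicate 2 (0.48, adjusted p = 0.121) and without LOF replicate 2 (0.64, adjusted p = 0.123), and without Krt14 6-week replicate 1 Timp3 was called in 8 over 6 weeks (1.03, adjusted p = 0.0229). The exons of Timp3 overlap Syn3 on the other strand. Timp4 ranged from 0 to 21 and was not called in any comparison.

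Of the 6 tested proteolytic ADAM genes, 5 were called in LOF (1 higher, 4 lower), where 30.9% of all tested genes were, and 4 in Krt14 over Inv (3 higher, 1 lower), where 19.6% were. Adam10 had 6559 and 6330 in Krt14 at 6 weeks, 3774 and 3601 in LOF, 6013 and 5544 in Krt14 at 8 weeks, 3570 and 3997 in Inv and 2893 and 2488 in GOF. The replicates agreed closely, and the Krt14 control libraries stood above all others and the GOF libraries below all others. Adam10 fell in LOF (-0.81 ± 0.10, adjusted p = 0.000234) and in GOF (-0.49 ± 0.10, adjusted p = 0.00958) and was higher in Krt14 than in Inv (0.61 ± 0.10, adjusted p = 0.00194). The GOF call was lost without Inv replicate 2 (-0.41, adjusted p = 0.104), and the Krt14 over Inv call held in every alternative run (0.53 to 0.70). With Xist as a covariate the LOF change was -0.11 (adjusted p = 0.898) and the GOF change 0.03 (adjusted p = 0.984). Adam17, the releasing enzyme of tumour necrosis factor and of several ligands of the EGF receptor, had 1976 and 2087 in Krt14 at 6 weeks, 1346 and 1286 in LOF, 1553 and 1724 in Krt14 at 8 weeks, 1225 and 1409 in Inv and 1128 and 999 in GOF. It fell in LOF (-0.63 ± 0.12, adjusted p = 0.00227) and was lower in GOF than in Krt14 (-0.62 ± 0.12, adjusted p = 0.00263). In GOF over Inv the change was -0.31 ± 0.12 (adjusted p = 0.0998), and without GOF replicate 1 it was -0.39 (adjusted p = 0.0309). Adam17 shares exon sequence with Iah1 on the other strand.

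Adam8, an ADAM of leukocytes and of tumour cells, had 793 and 594 in Krt14 at 6 weeks, 228 and 152 in LOF, 248 and 294 in Krt14 at 8 weeks, 123 and 111 in Inv and 183 and 125 in GOF. The 6-week Krt14 pair was above every other library. Adam8 fell in LOF (-1.88 ± 0.26, adjusted p = 0.000363), fell from 6 to 8 weeks (-1.34 ± 0.26, adjusted p = 0.0185) and was higher in Krt14 than in Inv (1.20 ± 0.26, adjusted p = 0.00783). The fall with time was lost whichever of its 4 libraries was left out (adjusted p = 0.0628 to 0.134), and the Krt14 over Inv call was lost without Krt14 8-week replicate 2 (1.08, adjusted p = 0.0792) or Inv replicate 2 (1.13, adjusted p = 0.0735). The neutrophil marker sum overlapped between the Krt14 groups, at 1923 to 4698 at 6 weeks and 1513 to 2310 at 8 weeks. Cxcr2 was highest in the Krt14 6-week group, while Ly6g, Csf3r and Retnlg were at 0 there. The part of these markers in the fall of Adam8 was not tested. Adam9, which cleaves membrane-bound ligands and collagen XVII, had 1202 and 1046 in Krt14 at 6 weeks, 1465 and 1685 in LOF, 1136 and 1186 in Krt14 at 8 weeks, 1727 and 1938 in Inv and 2124 and 1807 in GOF. All 4 Krt14 control libraries were below all others. Adam9 rose in LOF (0.49 ± 0.13, adjusted p = 0.0142) and was lower in Krt14 than in Inv (-0.66 ± 0.13, adjusted p = 0.00436). The LOF call was lost without Krt14 6-week replicate 2 (adjusted p = 0.123) and without LOF replicate 2 (0.12), and the other call without Inv replicate 2 (-0.57, adjusted p = 0.0597). Adam19 had 50 to 85 in the 4 Krt14 control libraries and 16 to 24 in the other 6, and was called lower in LOF (-1.71 ± 0.40, adjusted p = 0.00828) and higher in Krt14 than in Inv (1.88 ± 0.40, adjusted p = 0.0076). The LOF call was lost without Krt14 6-week replicate 1 (adjusted p = 0.0565) or LOF replicate 2 (0.0502), and the Krt14 over Inv call without the replicates 2 of Krt14 at 8 weeks (0.0822) or Inv (0.0694). The exons of Adam19 overlap Gm16033 and Gm16034 on the other strand. Adam15, the remaining tested gene of this class, ranged from 730 to 1116 and was not called.

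Adam22, which lacks the catalytic residues and is known as a receptor for Lgi proteins in the nervous system, had 39 and 34 in Krt14 at 6 weeks, 201 and 276 in LOF, 102 and 82 in Krt14 at 8 weeks, 365 and 319 in Inv and 258 and 198 in GOF. The Krt14 6-week pair was lowest, the Krt14 8-week pair next, and the other 6 libraries higher with no overlap. Adam22 rose in LOF (2.66 ± 0.25, adjusted p = 3.19e-05) and from 6 to 8 weeks (1.31 ± 0.25, adjusted p = 0.0172), and was lower in Krt14 than in Inv (-1.89 ± 0.25, adjusted p = 0.0004). The change with time was lost without Krt14 6-week replicate 2 (adjusted p = 0.106) or either Krt14 8-week library (0.128 and 0.0936), while the Krt14 over Inv call held in every alternative run (highest adjusted p = 0.0105). The melanocyte marker sum had the same order of groups except that LOF was above Inv. Of its 7 tested genes, 6 were called higher in LOF, against 19.5% of all tested genes. Whether that bears on Adam22 was not tested. Of the related Adam11 and Adam23, neither exceeded 35.

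Proteoglycanases of the Adamts family moved both ways, with 5 of 7 tested genes called in LOF (3 higher, 2 lower; 30.9% of all tested genes) and 4 of 7 in Krt14 over Inv (2 and 2; 19.6%). Adamts5 (ENSMUSG00000022894, chromosome 16, 85856173 to 85901828, minus strand), the main aggrecanase of mouse cartilage, had 392 and 646 normalized counts in Krt14 at 6 weeks, 67 and 118 in LOF, 512 and 533 in Krt14 at 8 weeks, 44 and 46 in Inv and 49 and 123 in GOF. As with Mmp13, all 4 Krt14 control libraries were above the other 6. Adamts5 fell in LOF (-2.49 ± 0.41, adjusted p = 0.00115) and was higher in Krt14 than in Inv (3.51 ± 0.41, adjusted p = 0.000181), and both calls held in every alternative run (highest adjusted p = 0.0296 and 0.00522). GOF over Inv was 0.78 ± 0.41 (adjusted p = 0.237), and 1.43 without GOF replicate 1 (adjusted p = 0.0138).

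Adamts9, a protease of versican that is also needed for cilium formation, had 3101 and 2033 in Krt14 at 6 weeks, 7419 and 7941 in LOF, 4701 and 4045 in Krt14 at 8 weeks, 10123 and 10644 in Inv and 5187 and 2278 in GOF. Inv was highest and LOF next, and the GOF libraries overlapped both Krt14 control groups. Adamts9 rose in LOF (1.61 ± 0.30, adjusted p = 0.00239) and fell in GOF (-1.59 ± 0.30, adjusted p = 0.00594), and was lower in Krt14 than in Inv (-1.25 ± 0.30, adjusted p = 0.0141). The LOF call held in every alternative run (1.31 to 4.16). The GOF call was lost without either Inv library (adjusted p = 0.0544 and 0.0671) and reversed to 0.34 with Xist as a covariate (adjusted p = 0.92). The Krt14 over Inv call was lost whichever of its 4 libraries was left out (adjusted p = 0.0605 to 0.11), and without GOF replicate 1 Adamts9 was lower in GOF than in Krt14 (-0.94, adjusted p = 0.00484). Its exons overlap A730049H05Rik and Gm15737 on the other strand.

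Adamts1 had 6000 and 5579 in Krt14 at 6 weeks, 5231 and 4458 in LOF, 8070 and 6557 in Krt14 at 8 weeks, 2594 and 2529 in Inv and 2908 and 4560 in GOF. Both Inv libraries were below all others. Adamts1 was higher in Krt14 than in Inv (1.51 ± 0.18, adjusted p = 0.000214) and lower in GOF than in Krt14 (-0.998 ± 0.18, adjusted p = 0.00226). It was not called in LOF (-0.26 ± 0.18, adjusted p = 0.307) or in GOF over Inv (0.51 ± 0.18, adjusted p = 0.0836), where it was called without GOF replicate 1 (0.83, adjusted p = 0.00129). Adamts15, another versican and aggrecan protease, had 96 and 124 in Krt14 at 6 weeks, 23 and 34 in LOF, 125 and 118 in Krt14 at 8 weeks, 44 and 23 in Inv and 34 and 6 in GOF. The Krt14 control libraries did not overlap the other 6. Adamts15 fell in LOF (-1.93 ± 0.63, adjusted p = 0.0399), a call lost whichever of its 4 libraries was left out (adjusted p = 0.0916 to 0.18), and was lower in GOF than in Krt14 (-2.97 ± 0.63, adjusted p = 0.00566). In Krt14 over Inv it was 1.90 ± 0.63 (adjusted p = 0.0589, and 0.0122 by limma-voom), and in GOF over Inv it was called without GOF replicate 1 (-2.23, adjusted p = 0.00639). Adamts20 and Adamts8 were near the floor in the Krt14 6-week group (3 and 3, and 0 and 0) and were called higher in LOF, where Adamts20 had 18 and 39 (adjusted p = 0.0031) and Adamts8 18 and 7 (adjusted p = 0.00384), the latter value at the floor. The Adamts8 call was lost with limma-voom (0.0526) and with Xist as a covariate (0.103), under which the change of Adamts20 turned to -0.35 (0.95). Adamts8 was also lower in Krt14 at 8 weeks (3 and 3) than in Inv (32 and 28, adjusted p = 0.0169), a call lost whichever of its 4 libraries was left out (0.0765 to 0.105). Adamts4 ranged from 5 to 32 and was not called.

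Among procollagen N-proteinases, which trim fibrillar procollagens, Adamts14 had 32 and 34 in Krt14 at 6 weeks, 100 and 95 in LOF, 176 and 148 in Krt14 at 8 weeks, 89 and 73 in Inv and 82 and 102 in GOF. The Krt14 groups were thus lowest at 6 weeks and highest at 8 weeks. Adamts14 rose from 6 to 8 weeks (2.26 ± 0.26, adjusted p = 0.00205), rose in LOF (1.53 ± 0.26, adjusted p = 0.00147) and was higher in Krt14 than in Inv at 8 weeks (0.99 ± 0.26, adjusted p = 0.0223). The last call was lost whichever of its 4 libraries was left out (adjusted p = 0.0646 to 0.15), and the GOF over Krt14 difference (-0.81 ± 0.26, adjusted p = 0.0408) was lost without either Krt14 8-week library (0.214 and 0.0935) or GOF replicate 1 (0.121) and with a replicate block (0.0535). Adamts3 was near the floor in all 6 libraries with Krt14-CREER (3 to 10), and had 71 and 48 in Inv and 70 and 19 in GOF, with a call in Krt14 over Inv (adjusted p = 0.0212) that was lost whichever of its 4 libraries was left out (0.0798 to 0.151). Adamts2 ranged from 0 to 25 and was not called.

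The remaining Adamts genes include Adamts10 and Adamts17, both linked to fibrillin microfibrils, Adamts18 and Adamts7. Adamts10 had 36 and 42 in Krt14 at 6 weeks, 162 and 197 in LOF, 100 and 95 in Krt14 at 8 weeks, 167 and 122 in Inv and 114 and 115 in GOF. It rose in LOF (2.17 ± 0.25, adjusted p = 0.000128) and from 6 to 8 weeks (1.30 ± 0.25, adjusted p = 0.0193), the latter a call lost whichever of its 4 libraries was left out (adjusted p = 0.0649 to 0.132). The Krt14 6-week pair was lowest of all libraries. Adamts17 had 1596 and 1085 in Krt14 at 6 weeks, 2159 and 2106 in LOF, 1911 and 1666 in Krt14 at 8 weeks, 3384 and 3186 in Inv and 1378 and 770 in GOF. The Inv pair was highest, and Adamts17 fell in GOF (-1.67 ± 0.24, adjusted p = 0.00134), the only GOF call among the members that was kept whichever of the 4 libraries was left out. It was lost with Xist as a covariate (-0.30, adjusted p = 0.918) and with only the groups compared in the fit (0.0858). It was lower in Krt14 than in Inv (-0.88 ± 0.24, adjusted p = 0.0243), a call lost whichever of its 4 libraries was left out (0.081 to 0.161). Its rise in LOF (0.70 ± 0.24, adjusted p = 0.0462) was lost with median-of-ratios scaling (0.55, adjusted p = 0.0695) and with only the groups compared in the fit (0.0896). That call was also lost without Krt14 6-week replicate 2 (0.42) and without LOF replicate 1 or 2 (0.68 and 0.71). In GOF over Krt14 (-0.79 ± 0.24, adjusted p = 0.0295) it was lost without either Krt14 library (0.17 and 0.0839) and without GOF replicate 2 (-0.37, adjusted p = 0.182).

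Adamts18 had 177 and 189 in Krt14 at 6 weeks, 60 and 95 in LOF, 232 and 248 in Krt14 at 8 weeks, 48 and 80 in Inv and 53 and 19 in GOF. Its 4 Krt14 control libraries were above the other 6, a split not counted over all tested genes. Adamts18 was higher in Krt14 than in Inv (1.93 ± 0.44, adjusted p = 0.0104) and lower in GOF than in Krt14 (-2.87 ± 0.44, adjusted p = 0.0008), and it fell in LOF (-1.26 ± 0.44, adjusted p = 0.0485). The LOF call was lost whichever of its 4 libraries was left out (adjusted p = 0.0742 to 0.25) and with a replicate block (0.0586), the Krt14 over Inv call without either Krt14 library (0.0625 and 0.0786) or Inv replicate 1 (0.109), and in GOF over Inv it was called without GOF replicate 1 (-1.66, adjusted p = 0.0083). Adamts7 had 220 and 277 in Krt14 at 6 weeks, 407 and 345 in LOF, 331 and 408 in Krt14 at 8 weeks, 203 and 208 in Inv and 349 and 320 in GOF. It rose in LOF (0.60 ± 0.18, adjusted p = 0.029) and in GOF (0.70 ± 0.18, adjusted p = 0.0267) and was higher in Krt14 than in Inv (0.84 ± 0.18, adjusted p = 0.00875). The Inv pair was lowest and the Krt14 6-week pair next. The LOF call of Adamts7 was lost without Krt14 6-week replicate 1 (adjusted p = 0.182) or either LOF library (0.166 and 0.0577), the GOF call without either Inv library (0.129 and 0.126), and the Krt14 over Inv call without Krt14 8-week replicate 2 (0.096) or either Inv library (0.0624 and 0.0578). The LOF call of Adamts7 was also lost with median-of-ratios scaling (0.46, limma adjusted p = 0.0822) and with quantile normalization (0.41, 0.117). With only the groups compared in the fit it was lost as well (0.0829). Adamts7 overlaps Tbc1d2b on the other strand.

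**Figure D5:**
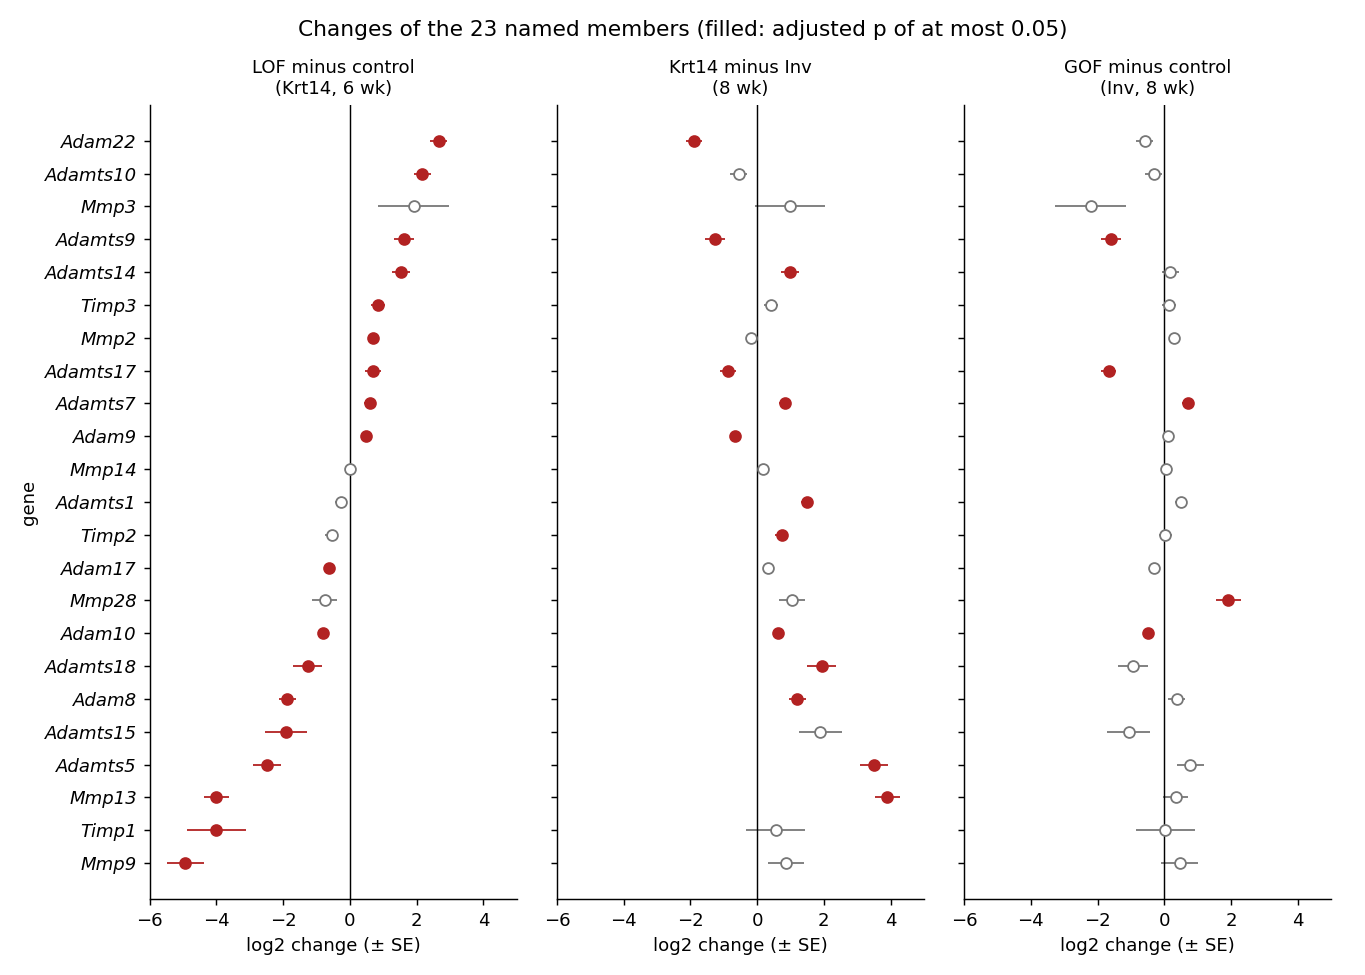
Log2 changes (points, with bars of 1 SE) of the 23 named members in LOF minus the Krt14 6-week group, Krt14 minus Inv at 8 weeks and GOF minus Inv, with filled points for an adjusted p of at most 0.05 and genes ordered by the LOF change. Mmp9, Timp1 and Mmp13 lie at the low end in LOF and Adam22 at the high end, and the sizes for Timp1 and Mmp9 depend on the 1 added before the log because LOF libraries are at or under the floor.

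The remaining members changed less or were rarer. The 5 tested Adam genes outside the classes above, most of them known from the testis, were called in 0 of the 5 comparisons by limma and 0 by limma-voom, with 1 unadjusted p under 0.05 in LOF and none elsewhere. Limma called 4.88% to 30.9% of all tested genes in these comparisons. Of the 5 Adam genes, Adam1a had the highest level, between 34 and 100, and its sharing of reads with the related Adam1b was not examined. Mmp15, Mmp17 and Mmp24 of the membrane type were at 363 to 852, 28 to 88 and 70 to 140. Mmp19 was at 62 to 111 and Mmp11, expressed by stroma in many tumours, at 13 to 50. Adamts6 rose from 7 and 13 in Krt14 at 8 weeks to 44 and 42 in GOF (adjusted p = 0.0364), a call lost whichever of its 4 libraries was left out (0.067 to 0.197). Mmp8, Mmp10, Adam19, Adamts3, Adamts6, Adamts8 and Adamts20 have means under 50 and were named after their values were seen. In all, 22 of the 51 tested members were called in none of the comparisons.

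Other genes of extracellular proteolysis were taken from a list of 52 regulators (plasminogen activators and their inhibitors, cathepsins, iRhoms, tetraspanins, convertases and Adamts-like proteins), of which 46 were tested. In LOF, 25 were called, 13 higher and 12 lower, with a median log2 change of 0.30, against 30.9% of all tested genes. In Krt14 over Inv there were 20 (13 and 7, median 0.17) against 19.6%, and in GOF 15 (11 and 4, median 0.26) against 15.3%. Between 8 and 6 weeks 4 were called (4 and 0, median 0.15) against 4.88%, and in GOF over Krt14 18 (9 and 9, median -0.04) against 27.7%. Sdc1, the proteoglycan syndecan-1, had 16755 and 16931 in Krt14 at 6 weeks, 6133 and 4929 in LOF, 12294 and 13016 in Krt14 at 8 weeks, 4226 and 3577 in Inv and 5670 and 5062 in GOF. Its log2 change was -1.61 ± 0.12 in LOF and 1.70 ± 0.12 in Krt14 over Inv. Papln, an Adamts-like matrix protein, rose in LOF (3.43 ± 0.20), from 151 and 148 to 1410 and 1872. In Krt14 over Inv, the plasminogen activator inhibitor Serpinb2 was higher by 3.99 ± 0.27 and the lysosomal protease Ctsb by 1.59 ± 0.09. In GOF, the membrane metalloprotease Mme fell (-2.37 ± 0.27, from 1033 and 1059 to 239 and 169), and Adamtsl5 (1.66 ± 0.20) and Rhbdf2, the iRhom partner of Adam17 (0.81 ± 0.11, from 2442 and 1938 to 3884 and 3767), rose. Each change of a regulator named here had a limma adjusted p of at most 0.00125. With Xist as a covariate, the LOF calls of Sdc1 (-1.14, adjusted p = 0.168) and Papln (2.03, 0.102) were lost, as were the GOF calls of Mme (-1.65, 0.519), Adamtsl5 (1.36, 0.489) and Rhbdf2 (0.93, 0.353). The GOF calls of Adamtsl5 (0.0663) and Rhbdf2 (0.091) were also lost with only the groups compared in the fit.

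Of 29 genes of matrix substrates, 25 were tested. In LOF, 8 (32.0%) were called (7 higher, 1 lower, median 0.40), near the 30.9% of all tested genes. In Krt14 over Inv there were 6 (2 and 4, median -0.04), or 24.0% against 19.6%, and in GOF 6 (4 and 2, median -0.33), or 24.0% against 15.3%. Between 8 and 6 weeks there were 6 (3 and 3, median -0.09) against 4.88% of all tested genes, and in GOF over Krt14 11 (6 and 5, median 0.26) against 27.7%. Nid1, a basement membrane linker that Adamts1 cuts, had 39 and 44 in Krt14 at 6 weeks, 397 and 384 in LOF, 112 and 102 in Krt14 at 8 weeks, 371 and 380 in Inv and 188 and 471 in GOF. It rose in LOF (3.21 ± 0.34) and was lower in Krt14 than in Inv (-1.80 ± 0.34). Fbn2, a fibrillin, went the other way, with -1.52 ± 0.13 in LOF and 2.42 ± 0.13 in Krt14 over Inv. Col17a1, the hemidesmosome collagen that Adam proteins shed, rose in LOF (0.72 ± 0.10). Vcan, the versican cut by Adamts1, Adamts5 and Adamts9, had 6303 and 2627 in Krt14 at 6 weeks, 12619 and 14928 in LOF, 3633 and 2436 in Krt14 at 8 weeks, 9550 and 10202 in Inv and 2475 and 671 in GOF. Vcan fell in GOF (-2.94 ± 0.51, adjusted p = 0.00396), a call lost without Inv replicate 2 (adjusted p = 0.0531), and with only the groups compared in the fit (0.11), and turned to 0.11 with Xist as a covariate. GOF replicate 2 was the lower for Vcan as for Adamts9. The laminin chain Lamb3 rose in GOF (0.63 ± 0.10). Each other change of a substrate gene named here had a limma adjusted p of at most 0.00351. The LOF calls of Nid1 (0.42, adjusted p = 0.868), Fbn2 (-0.85, 0.313) and Col17a1 (1.01, 0.156) and the GOF call of Lamb3 (0.62, 0.5) were lost with Xist as a covariate, the last also with only the groups compared in the fit (0.0957).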

How the data were processed

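Cells positive for SmoM2-YFP were sorted from skin epidermis and RNA libraries were made with a kit for low input, per the labels' protocols. STAR, HTSeq and the mouse build GRCm38 (mm10) are named in the submitters' processing notes. The sources used here do not give versions, the annotation release or the use of strand. The authors deposited a score per gene and library, a normalized count rounded to a whole number: each column adds up to 20011195 to 20014054, and within a tolerance of 1, 99.3% to 99.9% of entries below 20000 were whole reads multiplied by a step of 2.255 to 2.6 and rounded up.

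The test covered the 21995 genes that reached 10 in 2 or more of the 10 libraries. The log2 of the value plus 1, which understates changes of low genes, was fitted with limma 3.58.1 in R 4.3.3 over all 5 groups (residual degrees of freedom 5, median prior 5.91, intensity trend, two-sided, Benjamini-Hochberg over all tested genes, called at 0.05). An exact permutation test of 2 libraries against 2 cannot go below p = 0.333. Alternatives were a pseudocount of 0.5 or 5, no filter or a filter of 50, median-of-ratios and quantile scaling, a fit on the groups compared only, a replicate block, limma-voom on recovered reads, each library left out, and Xist as a covariate, which was chosen after seeing the data for the GOF comparisons. The scripts were tested on simulated data.

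The members, gene lists and marker lists were chosen with earlier results of these data known. Every library value is given for called members with a mean of at least 50 and for Timp1, Timp2, Timp3, Mmp2, Mmp9, Mmp13, Mmp14, Adam10, Adam17 and Adamts1. From each of the regulator and substrate lists, the 3 called genes with the smallest p and a mean of at least 50 are named in LOF, GOF and Krt14 over Inv, apart from genes that are not reported here. Positions and exon lengths come from GENCODE M21 (GRCm38), to which 49326 of the 49671 gene IDs and all 79 members matched. Promoters come from RefSeq (GRCm38.p6) and cover 49 members, among which Adam9, Adamts10, Adamts15, Adamts5, Adamts7, Mmp2 and Mmp9 are not. Protein sequences were not used here.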

Additional observations from a re-analysis of the deposited data

How the results depend on the processing

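Counts of called members in LOF, GOF, Krt14 over Inv, 8 over 6 weeks and GOF over Krt14 were 22, 5, 17, 5 and 20. The shares of all tested genes were 30.9%, 15.3%, 19.6%, 4.88% and 27.7%. Leaving out 1 library gave 13 to 19, 1 to 14, 7 to 10, 1 to 4 and 10 to 18. The lowest count came without LOF replicate 2 in LOF, and without the replicates 2 of Krt14 at 8 weeks or Inv in Krt14 over Inv. It came without Krt14 6-week replicate 2 or either Krt14 8-week library in 8 over 6 weeks, and without Krt14 8-week replicate 2 in GOF over Krt14. In GOF it was 1 without Inv replicate 2 and 14 without GOF replicate 1. Fewer of all tested genes were called too whichever library was left out, except GOF replicate 1. The drops are thus not particular to the members. With only the groups compared in the fit, GOF gave 0, 8 over 6 weeks 0 and GOF over Krt14 9. Of all tested genes, that fit called 1.17%, 0.0364% and 12.1%. For 8 over 6 weeks there were 3 calls without a filter, 2 with quantile normalization and 3 with limma-voom. The shares of all tested genes there were 1.64%, 2.13% and 3.19%. With Xist as a covariate the counts were 5 in LOF, 0 in GOF and 3 in GOF over Krt14. The shares of all tested genes were then 4.28%, 0.182% and 0.918%. Xist separates LOF and GOF from their controls, so the group and what moves with Xist cannot be told apart. The covariate fit leans on the spread of Xist within groups, mainly between the GOF libraries. A call that it kept, lost or turned is therefore no test of that change.

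The direction of a called change turned with Xist as a covariate in LOF for Adamts15 (3.00), Adamts18 (1.74) and Adamts20 (-0.35), and in GOF for Adam10 (0.032), Adamts9 (0.34) and Vcan (0.11). In GOF over Krt14 it turned for Adam8 (0.23), Adamts15 (1.36), Adamts17 (0.80), Mmp2 (-0.075) and Mmp3 (3.86). The cause was not tested. Over all named genes, comparisons and alternatives, 2138 results kept direction and side of the threshold, 70 that were not called in either fit changed sign, 250 lost a call, 38 gained one and 11 called changes turned.

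Samples with the same replicate number did not deviate together (correlations of -0.05 to 0.04 over 10 pairs of groups), so the numbers give no pairing. A replicate block gave 22, 6, 17, 5 and 19 called members. Median-of-ratios scaling moved the median of all genes in LOF from 0.16 to 0.02 and in 8 over 6 weeks from 0.14 to 0.00. With 3 reads as the floor, members at 7 or 8 normalized counts or less cannot be ranked.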
